A study of Homo sapiens with 6 samples.

Results

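Among 1978613 autosomal windows of 1 kb, 765 kept high CpG methylation after H9 human embryonic stem cells were reset. These retained windows were selected on the measured methylation levels of both groups. A window had to hold at least 10 calls in each of 6 libraries, a mean level of at least 80% in the conventional libraries and a reset mean of at least 0.8 times that mean. A call is the reading of 1 sequenced cytosine at a CpG as methylated or unmethylated, and a level is the percentage of methylated calls in a window. The windows with a conventional mean of at least 80%, called highly methylated here, numbered 1734430, and the retained windows were 0.0441% of them. Because the rule used the levels of both groups, those levels are given below as a description, without a test.

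H9 is an established embryonic stem cell line. The 3 conventional libraries came from H9 in FGF/KSR medium, which contains bFGF and knockout serum replacement. The 3 reset libraries came from reset H9 cells. The study made such cells by expressing doxycycline-inducible NANOG and KLF2 transgenes and then withdrawing doxycycline, and also by transient transfection. It does not state the route for these libraries. Reset cells were afterward propagated in t2iL+Gö, that is, CHIR99021, PD0325901, LIF and Gö6983, an inhibitor of protein kinase C. Both kinds of culture grew on mouse embryonic fibroblast feeders at low oxygen. The study describes its bisulfite libraries as biological replicates. The labels do not say whether the reset libraries came from separate resettings, and p-values measure only the spread between these libraries. With 3 libraries against 3, the smallest two-sided p of an exact permutation test over libraries is 0.1. The conventional libraries held 92023996 to 98004161 calls and the reset libraries 70329213 to 80199615.

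Methylation of cytosine at CpG is copied to new DNA strands by DNMT1 with UHRF1 and is set anew by DNMT3A and DNMT3B. It is lost from most of the genome in naive pluripotent cells and in the early embryo. Known exceptions in the early embryo are imprinted control regions, which zinc finger proteins such as ZFP57 guard, and some young repeats. The conventional levels here are those of primed pluripotent cells, in which nearly all CpGs outside CpG islands are methylated.

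The reference sequence shows how unlike each other the retained windows were. Each line below is the stretch of 300 bases with the most CpGs, outside any UTR, of 1 retained window, on the plus strand of GRCh37, with every CpG in capitals. The first pair were CpG-dense windows at an exon, the next 3 held short tandem repeats, and the last lay outside genes and had no repeated 16-base words.
BRD7P2 exon, chr3:159818471-159818770: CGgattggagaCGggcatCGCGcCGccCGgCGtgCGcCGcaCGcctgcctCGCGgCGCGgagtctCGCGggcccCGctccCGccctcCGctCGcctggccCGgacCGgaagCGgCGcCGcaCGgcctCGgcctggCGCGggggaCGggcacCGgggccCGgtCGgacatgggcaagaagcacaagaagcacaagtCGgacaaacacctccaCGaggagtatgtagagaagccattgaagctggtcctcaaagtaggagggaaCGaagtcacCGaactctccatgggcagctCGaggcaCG
EBF3 exon 9 and flanking introns, chr10:131666016-131666315: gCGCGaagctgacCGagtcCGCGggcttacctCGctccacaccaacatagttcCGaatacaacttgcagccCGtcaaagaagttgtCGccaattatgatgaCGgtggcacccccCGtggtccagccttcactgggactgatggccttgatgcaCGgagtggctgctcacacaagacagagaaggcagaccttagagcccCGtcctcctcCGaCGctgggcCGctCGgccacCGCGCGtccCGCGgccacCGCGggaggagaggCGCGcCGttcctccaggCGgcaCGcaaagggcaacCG
Repeat beside THEG, chr19:360072-360371: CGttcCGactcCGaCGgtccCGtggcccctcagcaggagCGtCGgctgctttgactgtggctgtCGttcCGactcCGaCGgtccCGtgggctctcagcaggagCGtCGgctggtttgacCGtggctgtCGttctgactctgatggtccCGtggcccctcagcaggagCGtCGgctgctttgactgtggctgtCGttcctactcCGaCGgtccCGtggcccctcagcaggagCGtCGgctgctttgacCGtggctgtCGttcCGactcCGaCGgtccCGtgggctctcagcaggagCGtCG
MAD1L1 intron, chr7:1978699-1978998: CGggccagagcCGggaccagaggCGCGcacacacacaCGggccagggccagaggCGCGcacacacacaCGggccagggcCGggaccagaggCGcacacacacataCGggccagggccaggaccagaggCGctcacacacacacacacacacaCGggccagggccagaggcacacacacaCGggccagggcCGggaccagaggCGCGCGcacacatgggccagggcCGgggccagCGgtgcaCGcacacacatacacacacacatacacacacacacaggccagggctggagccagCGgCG
C2orf16 coding exon 5, chr2:27804320-27804619: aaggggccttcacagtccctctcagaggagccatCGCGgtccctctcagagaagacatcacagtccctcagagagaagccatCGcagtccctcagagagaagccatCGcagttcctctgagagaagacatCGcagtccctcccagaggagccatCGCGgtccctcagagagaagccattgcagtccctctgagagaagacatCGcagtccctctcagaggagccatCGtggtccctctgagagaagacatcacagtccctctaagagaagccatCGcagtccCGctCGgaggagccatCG
No gene, toward CCND1, chr11:69327650-69327949: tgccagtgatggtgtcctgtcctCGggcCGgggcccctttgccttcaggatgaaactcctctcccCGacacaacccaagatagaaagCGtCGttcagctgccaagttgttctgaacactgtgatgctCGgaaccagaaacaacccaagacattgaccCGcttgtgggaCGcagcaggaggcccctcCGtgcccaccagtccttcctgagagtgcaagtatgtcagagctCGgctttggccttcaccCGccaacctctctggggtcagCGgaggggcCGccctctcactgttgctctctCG

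The stretch in BRD7P2, a processed pseudogene of the bromodomain gene BRD7, held 39 CpGs. Its levels were 98.0, 99.6 and 100% in the conventional libraries and 85.7, 87.4 and 92.2% in the reset libraries, from 70 to 223 calls per library. The EBF3 stretch held 30 CpGs and read 95.9, 95.8 and 91.7% against 86.8, 90.8 and 64.8%. The repeat beside THEG, with a period of 64 bases and 33 CpGs, read 96.5, 98.5 and 95.9% against 76.9, 86.8 and 87.5%. In each of these stretches the groups did not overlap, with reset lower, as in 97.9% of all tested windows. Over the whole EBF3 window, described below, the groups overlapped. The stretch toward CCND1 had only 14 CpGs and read 84.1, 82.4 and 92.9% against 68.0, 77.1 and 64.3%. The MAD1L1 stretch read 98.0, 100 and 96.6% against 73.1, 80.9 and 91.7%. The C2orf16 stretch varied most between reset libraries, at 89.9, 88.6 and 93.5% against 40, 70.8 and 87.9%. Its 40% in reset replicate 1 came from 5 calls.

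The retained windows as a whole had library medians of 91.2, 90.9 and 90.5% in conventional cells and 74.4, 73.9 and 76.0% in reset cells. Their reset means ran from 64.3 to 91.5% (median 75%). The other highly methylated windows had a median reset mean of 32.1%, with quartiles of 19.9 and 42.5%. Relative to its own conventional mean, a highly methylated window kept a median of 35.1%. The retained windows lay at the upper end of this continuous range and kept a median of 82.3%, with quartiles of 81 and 84.4%. The 3 windows nearest above the limit, in CAVIN2-AS1, in ZNF512 and outside genes on chromosome 18, had reset means of 69.2, 76.4 and 66.7%. The 3 nearest below it, in TEK, outside genes on chromosome 11 and in IL12A-AS1, had reset means of 73.7, 69.3 and 73.9%.

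In all but 1 of the retained windows the reset mean lay below the conventional mean. The conventional and reset libraries did not overlap, with reset lower, in 421 of the 765 retained windows (55.0%), where 97.9% of all tested windows showed this. This share uses the contrast that chose the windows, so nothing is read from its distance to the background. The exception, a window with a reset mean above its conventional mean, lay outside genes at chr6:168758001-168759000, was picked out after its values were seen, and read 70.8, 89.3 and 100% in conventional and 93.8, 83.3 and 86.7% in reset libraries from 12 to 28 calls each.

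Depth set how firmly single windows can be read. The lowest library of a retained window held a median of 16 calls, against 21 in the other highly methylated windows. The SD over the reset libraries had a median of 9.18 points in retained windows and 7.69 points in the other windows. Every reset library was at least 0.8 times the conventional mean in 96 of the 765 windows (12.5%). A minimum of 30 calls per library was met by 123 retained windows, and 16 windows met both conditions.

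The level in a library that took no part in the choice was much lower than the level that chose the windows. Windows were chosen again from 2 reset libraries, still with at least 10 calls in each of the 6 libraries, and the remaining reset library was then read. With reset replicate 1 left out, 1991 windows were chosen, with a median of 75.6% in the libraries that chose them and 55.9% in replicate 1. With replicate 2 left out, 1973 windows read 57.1% in it, and with replicate 3 left out, 1609 windows read 58.8%. The mean of the 3 medians was 57.3% ± 1.48 (SD, n = 3 libraries). The windows not chosen read 30.6, 31.6 and 31.7% in the same libraries. Of the chosen windows, 11.0, 11.9 and 17.3% reached 0.8 times the conventional mean in the library left out, against 0.387, 0.436 and 0.601% of the windows not chosen. The chosen windows thus stayed above the rest in a library not used, but most of them fell under the limit there.

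**Figure D1:**
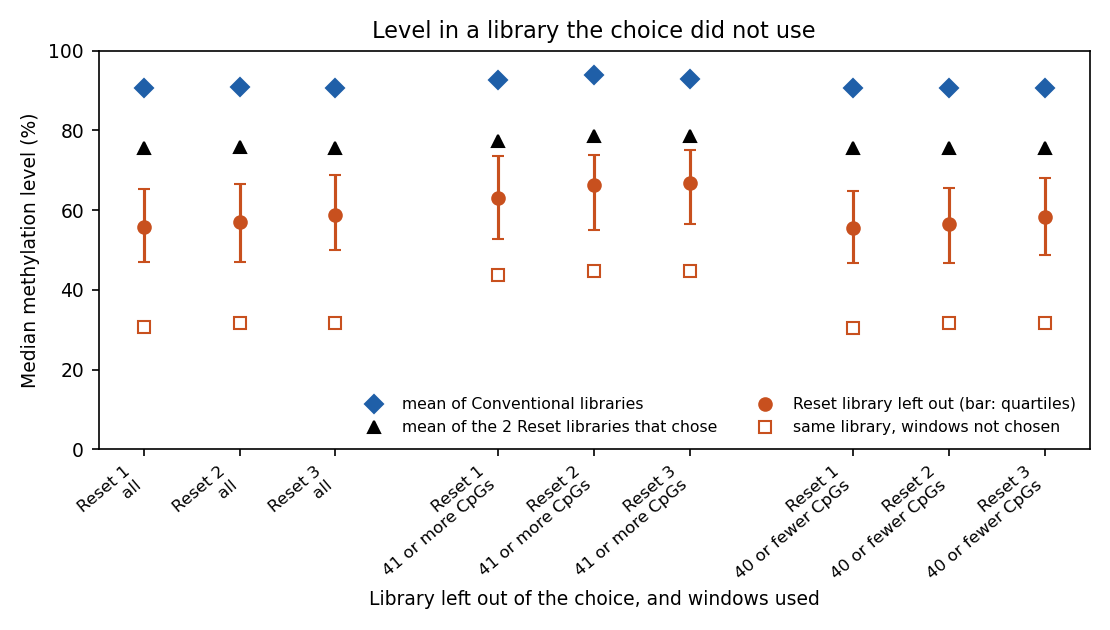
Median methylation level (%, vertical axis) of windows chosen without 1 reset library (horizontal axis: the library left out, for all windows, windows with 41 or more CpGs and windows with 40 or fewer). Diamonds are the conventional mean, triangles the mean of the 2 reset libraries that chose, filled circles the library left out with quartiles as bars, and open squares the same library in windows not chosen. Filled circles lie between 55.6 and 66.8%, below every triangle and above every open square.

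The 8 retained windows that passed the strictest conditions and had the highest reset means are described next. These conditions were at least 30 calls in every library, every reset library at or above the limit, and calls per CpG between 0.5 and 2 times the autosomal mean in both groups. They were met by 10 windows. The highest was the BRD7P2 window at chr3:159818001-159819000, which also lies in an intron of the lncRNA gene IL12A-AS1. Its levels were 98.4, 99.2 and 100% in conventional libraries and 82.3, 82.9 and 84.2% in reset libraries, or 83.2% ± 0.975 (SD, n = 3) in reset cells. The reset libraries of this window had 95 to 217 calls each. An intron of ACOT7, which encodes an acyl-CoA thioesterase, followed at chr1:6427001-6428000. It read 92.2, 93.0 and 92.3% against 83.9, 78.3 and 82.1%, with 17 CpGs, and 58.2% of its 16-base words occur at least 10 times in the genome.

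An intron of MAD1L1, a gene of the spindle assembly checkpoint, was retained at chr7:1979001-1980000. Its levels were 90.8, 87.8 and 93.6% in conventional and 76.5, 84.9 and 74.5% in reset libraries. EBF3, which encodes a transcription factor of neuronal development, was retained at the window chr10:131666001-131667000 with coding exon 9. Its conventional mean was the lowest of the 8 windows, from levels of 77.5, 88.2 and 78.3%, and it read 76.6, 79.9 and 66.9% in reset libraries, so the groups overlapped. An intron of the transcribed pseudogene SLC44A3-AS1 at chr1:95090001-95091000 read 91.5, 88.9 and 88.9% against 78.1, 72.0 and 80%. The remaining 3 windows lay outside genes. The window chr11:67901001-67902000, 12589 bases from the choline kinase gene CHKA, read 76.8% ± 1.39 in reset and 93.6% ± 4.41 in conventional cells (SD, n = 3). The window chr3:129067001-129068000, 32371 bases from the linker histone gene H1-10, read 74.1% ± 0.894 against 89.6% ± 4.31. The window chr11:69327001-69328000 read 72.5% ± 3.11 against 86.7% ± 5.55. Its nearest protein-coding gene, the cyclin D1 gene CCND1, lies 128423 bases away. In 7 of the 8 windows no reset library reached the lowest conventional library (97.9% of all tested windows showed this), and EBF3 was the exception. The 8 windows held between 13 and 50 CpGs.

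**Figure D2:**
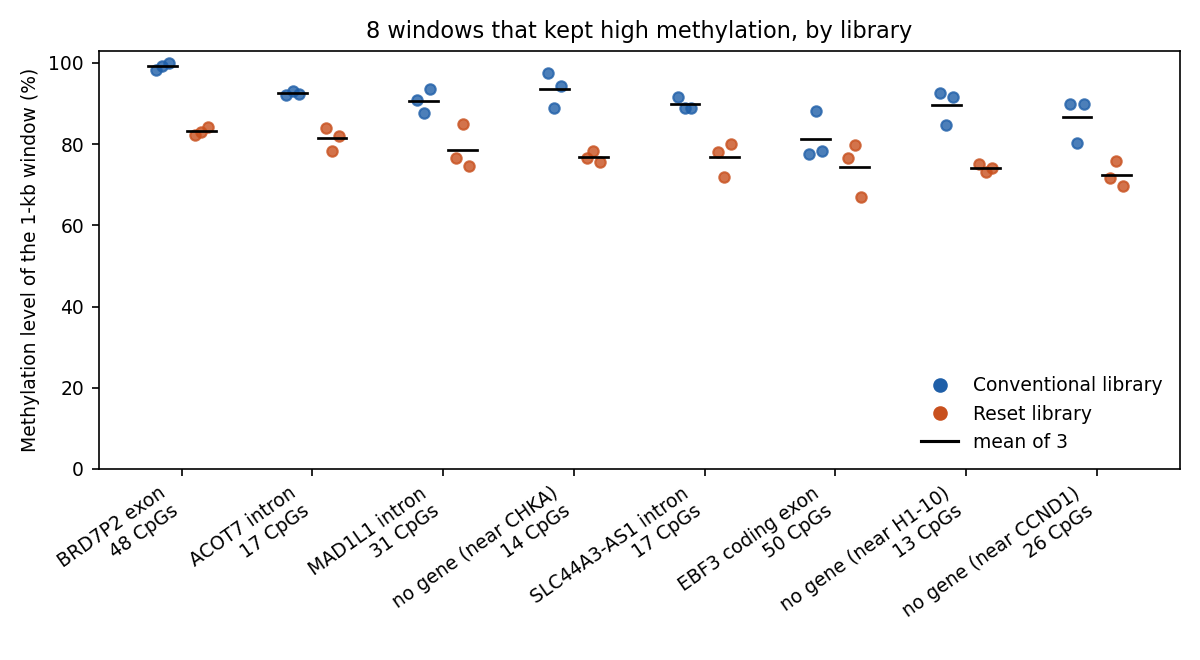
Methylation level (%, vertical axis) of 8 retained windows (horizontal axis, named by gene and number of CpGs) in each of 3 conventional (blue) and 3 reset (orange) libraries, with the mean of each group as a black bar. Reset levels lie between 66.9 and 84.9%, and they overlap the conventional levels in the EBF3 window.

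The rate of retention was higher in windows with many CpGs, a property of the reference that the rule did not use. Of highly methylated windows with at most 5 CpGs, 4.24 per 10000 were retained. The rate was 4.02 per 10000 with 6 to 10 CpGs, 3.29 with 11 to 20 and 6.41 with 21 to 40. The rate thus fell slightly over the first 3 classes and rose from 21 CpGs up. At 30 calls it did not fall, with 1.02 per 10000 at 6 to 10 CpGs, 1.39 at 11 to 20 and 3.38 at 21 to 40, and the class of at most 5 CpGs had 147 windows left. At 10 calls the rate was 36.0 with 41 to 60 CpGs, 58.9 with 61 to 80 and 272 with 81 or more, where 18 of 662 windows were retained. Windows with at least 41 CpGs made up 8.89% of the retained windows and 0.767% of the other highly methylated windows. In absolute numbers most retained windows were nevertheless CpG-poor: 697 of 765 had at most 40 CpGs, and the median was 10 CpGs against 9 in the other highly methylated windows. The rate was 50.9 per 10000 with at least 41 CpGs and 4.05 with at most 40. With a minimum of 30 calls in each library both rates were lower. They were then 34.0 per 10000 (40 of 11779 windows) with at least 41 CpGs and 1.92 (83 of 432622) with at most 40, and 183 per 10000 with 81 or more. The typical highly methylated window also kept more in the dense class, with a median reset level of 45.2% against 32% in windows with at most 40 CpGs. Calls per CpG in the dense retained windows were 0.340 ± 0.0118 of the autosomal mean in conventional and 0.390 ± 0.0490 in reset libraries (SD, n = 3). The other dense highly methylated windows had 0.499 ± 0.0143 and 0.604 ± 0.0193. The lowest library held a median of 38.5 calls in dense retained windows and 64 in the other dense windows. The part of this coverage in the result was not tested.

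The dense windows read higher in a library left out of the choice, and so did dense windows that were not chosen. Chosen windows with at least 41 CpGs read 63.0, 66.3 and 66.8% there, and those with at most 40 CpGs read 55.6, 56.4 and 58.3%. The windows not chosen differed in the same direction, at 43.8, 44.7 and 44.7% in the dense class and 30.4, 31.6 and 31.6% in the other. Of the dense chosen windows, 25.5, 22.9 and 29.5% reached the limit in the library left out, against 10.3, 11.2 and 16.6% of the others. Among windows not chosen, 1.35, 1.22 and 1.97% of the dense and 0.380, 0.430 and 0.590% of the others did. With a minimum of 30 calls the shares of chosen windows were 24.5, 21.8 and 28.3% against 8.29, 9.86 and 15.3%. Those of windows not chosen were then 0.870, 0.768 and 1.31% against 0.218, 0.234 and 0.330%.

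Tandem repeats also went with a higher rate. For each window the share of its 16-base words that occur again within it was counted. The rate of retention was 4.12 per 10000 highly methylated windows where this share was under 5%, 10.6 from 5 to under 20%, 47.3 from 20 to under 50% and 132 from 50% up. In the class with at least 41 CpGs it was 36.6 per 10000 under 5% and 149 at 20% or more. With at most 40 CpGs it was 3.92 and 38.2 per 10000, so the repeats and the CpG density each went with a higher rate within classes of the other. With at least 30 calls the rates were 2.27 per 10000 where under 5% of words were repeated and 51.5 where at least 20% were. Repeats of at least 20% marked 37 retained windows. Of these 62.2% lay in a protein-coding gene and 70.3% within 5 Mb of a chromosome end, against 56.9% and 61.5% of the other highly methylated windows with such repeats. Their periods ran from 2 to 175 bases, with a median of 54. Mapping of reads within such repeats is uncertain, and its part in the result was not tested.

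**Figure D3:**
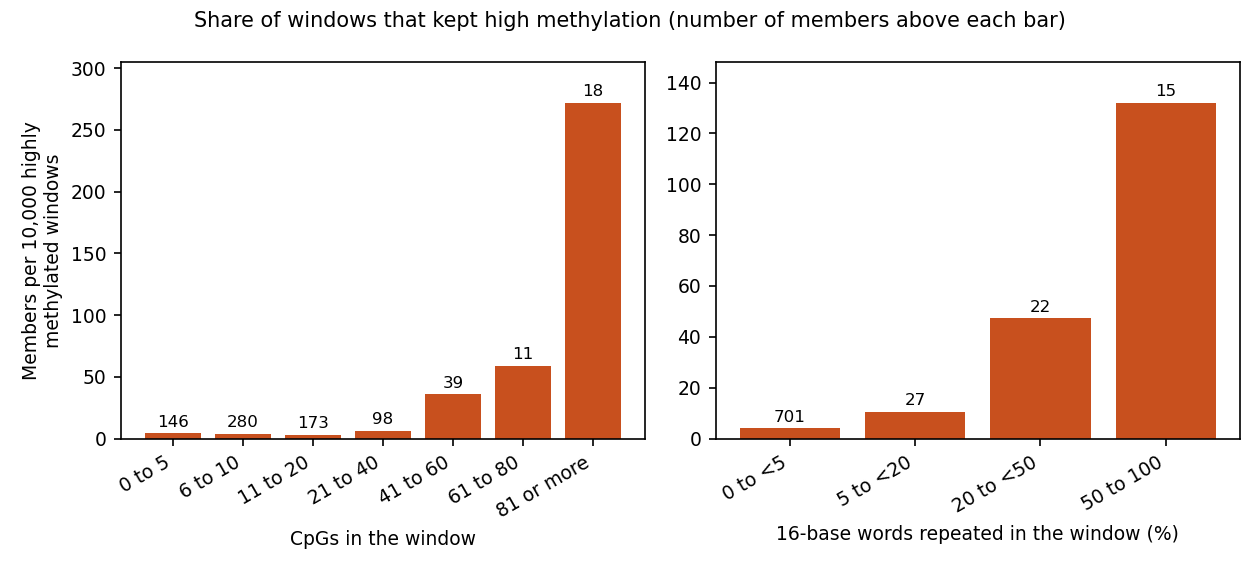
Retained windows per 10000 highly methylated windows (vertical axes, starting at 0), by number of CpGs in the window (left) and by the percentage of 16-base words repeated in the window (right), with the number of retained windows above each bar. The rate reaches 272 in windows with 81 or more CpGs and 132 in windows where at least 50% of words are repeated.

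For sequences with many copies in the genome, the rate rose with the share of such sequence at 10 calls but followed no such order at 30 calls. Windows in which at least 50% of the 16-base words occur 10 or more times in GRCh37 made up 35.7% of retained and 22% of the other highly methylated windows. The rate was 3.20 per 10000 where under 25% of words were of this kind, 4.04 from 25 to under 50%, 6.42 from 50 to under 75% and 10.9 at 75% or more. With a minimum of 30 calls these rates were 3.13, 1.87, 3.83 and 1.51, the last from 3 windows. Among windows with at least 41 CpGs the rates were 28.5, 29.3, 125 and 115 per 10000, and at 30 calls 27.9, 21.2, 105 and 13.1, where a single window of 762 was retained in the last class. Reads of such sequences can be placed at the wrong copy, and this was not tested. In 1 retained window a library exceeded 3 times its median calls per CpG. The GC content of retained windows had a median of 44.6% against 41.3%. The letters TGCCGC, the methylated core of the ZFP57 motif, occurred on either strand in 12.9% of retained and 7.17% of the other highly methylated windows. With at least 41 CpGs the rate was 49.5 per 10000 for windows with these letters and 50.9 per 10000 for all windows, so the excess was not seen within the dense class. With at most 40 CpGs it was 5.91 per 10000 with these letters and 4.05 for all windows.

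Promoters of lncRNA genes held a larger share of the retained than of the other highly methylated windows. Those of protein-coding genes did not, and the differences were not tested. In all, 5 retained windows overlapped the promoter of a protein-coding gene, set at 1000 bp before to 500 bp after the start. This was 0.654% of them against 0.726% of the other highly methylated windows. Promoters of lncRNA genes held 19, or 2.48% against 1.43%, a rate of 7.67 per 10000 highly methylated windows where all such windows had 4.41. With a minimum of 30 calls, 7 windows at lncRNA promoters gave 7.22 per 10000. A single window at a protein-coding promoter then gave 1.58, against 2.77 for all highly methylated windows. The window at chr12:6233001-6234000 covers exon 1 of VWF, the gene of von Willebrand factor, and read 73.3, 96.7 and 78.8% in conventional and 75, 69.6 and 70% in reset libraries. The window at chr17:79623001-79624000 covers exon 1 of PDE6G, a subunit gene of the rod photoreceptor phosphodiesterase, and read 81.5, 94.4 and 90% against 78.8, 69.4 and 77.4%. The start of the olfactory receptor gene OR10AG1, at chr11:55737001-55738000, read 81.8, 80 and 86.5% against 78.9, 75 and 67.7%. The window upstream of CCDC71, at chr3:49204001-49205000, read 89.3, 81.8 and 95.2% against 84.6, 68 and 65%, from 20 to 28 calls per library. The groups overlapped at VWF and CCDC71 and did not at PDE6G and OR10AG1, where 97.9% of all tested windows showed no overlap with reset lower. The fifth, at chr2:27804001-27805000, reaches the promoter of ZNF512 but consists of coding exon 5 of C2orf16. In this window 29.7% of the 16-base words are repeated, with the period of 24 bases seen in the stretch shown above. It read 90.8, 86.7 and 93.0% against 65.6, 69.8 and 83.3%.

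Protein-coding gene bodies held a smaller share of the retained windows than of the other highly methylated windows, and the difference was not tested. Protein-coding gene bodies contained 45.9% of retained and 51.2% of the other highly methylated windows, lncRNA genes 19.5% and 18.7%, and 35.9% and 33.4% lay in no gene of these kinds or pseudogene. Pseudogenes were the exception, with 42 retained windows, which is 5.49% against 1.83%. Coding sequence over at least 500 of the 1000 bases gave 14 retained windows, a rate of 18 per 10000 highly methylated windows against 4.41 overall. Of these 14, 5 form the run in PLEC described next, and without it the rate was 11.6. In windows with at least 41 CpGs the rate for such coding sequence was 48.0 per 10000 with that run and 13.8 without it, against 50.9 and 47.2 for all windows of this density. In all, 536 genes held at least 1 retained window and 11 held 3 or more.

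Most retained windows lay alone, though retained windows were only 0.0387% of tested windows, and their spacing was not tested against random placement. Joining windows whose starts were at most 5 kb apart left 730 alone, 15 pairs and 1 run of 5. That run lay in PLEC, which encodes plectin, a large protein that links intermediate filaments to other parts of the cell, at chr8:144990001-144999000. A single one of the 5 windows had every reset library at the limit. With pooled calls or without conventional replicate 2, 4 of the 5 windows met the limit, and without reset replicate 1 or without reset replicate 2, 3 of them did. Each of the 5 windows overlaps coding exon 31 or 32 of PLEC and holds 67 to 114 CpGs. Over the 5 windows the means were 97.7, 94.0 and 94.8% in conventional and 81.2, 81.4 and 77.0% in reset libraries. The highest single window, at chr8:144992001-144993000, read 95.8, 93.0 and 93.3% against 83.8, 94.2 and 80.2%. The 4 windows between the retained ones did not meet the limit but read 72.3, 73.4 and 71.8% in reset libraries and kept 72.3 to 79% of their conventional mean. The 12 windows on each side read 51.5, 49.2 and 49.5% in reset libraries, with single windows from 5.55 to 72.6%. Conventional means were 95.5% ± 1.96 in the retained windows of the run and 91.6% ± 1.96 in the windows on each side (SD, n = 3). The rule chose the 5 windows for high reset levels, so nothing is read from their difference to the windows on each side.

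**Figure D4:**
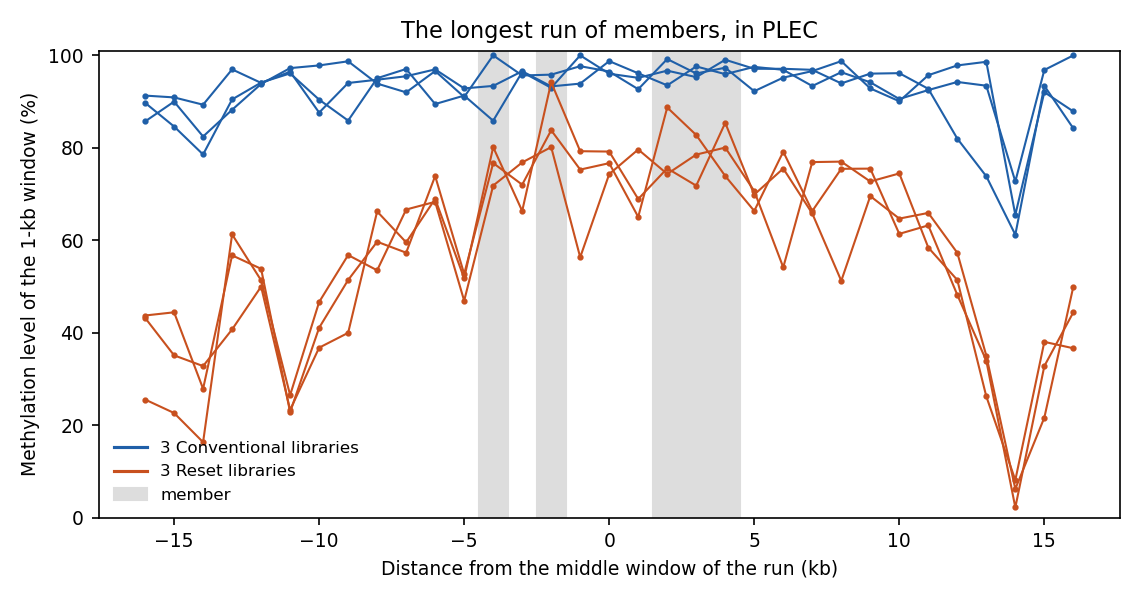
Methylation level (%, vertical axis) of successive windows of 1 kb around the retained run in PLEC (horizontal axis: distance in kb from the middle window), with 1 line for each of 3 conventional (blue) and 3 reset (orange) libraries and retained windows shaded. The reset means of the 5 shaded windows lie between 76.2 and 86.1%, and the reset mean falls to 5.55% at a window 14 kb to the right, where the conventional mean is 66.5%.

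The pairs with the most calls were in or near THEG, MAD1L1, KIF26B and LAMA5. THEG is a gene of spermatids, and the pair at chr19:360001-362000 covers the 64-base repeat downstream of it, with 83 and 102 CpGs. Its first window read 97.1, 96.9 and 94.9% in conventional and 84.3, 66.7 and 82.9% in reset libraries. Its second window, which reaches exon 8 of THEG, read 95.3, 89.6 and 91.1% against 77.8, 85.7 and 91.2%. The reset libraries overlapped the conventional ones in the second window but not in the first (97.9% of all tested windows showed no overlap with reset lower). The second MAD1L1 window, next to the one described above, holds a repeat with a period of 2 bases and read 90.8% ± 2.51 in conventional and 72.8% ± 3.00 in reset cells (SD, n = 3). KIF26B, a kinesin gene, had 2 retained windows that overlap its exon 12, with only 294 and 109 coding bases. They read 93.2% ± 3.79 against 75% ± 8.90 and 87.4% ± 6.07 against 72.3% ± 6.70 (SD, n = 3). LAMA5, which encodes a laminin chain of basement membranes, was retained at exons 49 to 50 and at exons 52 to 53. These windows read 74.5% ± 2.01 and 76.8% ± 2.85 in reset cells and 90.5% ± 3.05 and 94.1% ± 7.45 in conventional cells.

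Beyond PLEC, the genes with the most retained windows held 3 or 4 each, spread over 12 to 452 kb. The lncRNA gene ENSG00000250994 on chromosome 5 had 4 over 38 kb, with reset means of 73.5 to 79.8%. COMMD1, EGLN3, KIF26B and ZSWIM5 had 3 each, as had 5 unnamed lncRNA genes, some of which overlap each other. In EGLN3, a prolyl hydroxylase gene of the oxygen response, the 3 windows spanned 344 kb with reset means of 76.4 to 77.6%. In COMMD1, a regulator of copper handling, they spanned 109 kb with 70.4 to 76.2%. In ZSWIM5 they spanned 123 kb with 70.9 to 78.3%. None of the windows in these 3 protein-coding genes had every reset library at the limit.

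Zinc finger genes held a larger share of the retained windows than of the other highly methylated windows. These genes, many of them repressors of transposable elements and clustered on chromosome 19, contained 28 retained windows, which is 3.66% of the retained and 0.992% of the other highly methylated windows. The rate was 16.3 per 10000, with 27.5 on chromosome 19 and 10.5 elsewhere. With a minimum of 30 calls, 5 windows gave 9.22 per 10000, against 2.77 for all highly methylated windows. Of these, 4 lay on chromosome 19, where the rate was 20.1, and the single window elsewhere gave 2.91, close to that of all windows. On chromosome 19 outside these genes the rate was 9.67, and the chromosome as a whole had 12.4 per 10000 where the other autosomes had 2.30 to 6.0. The 28 windows had a median reset mean of 73.9% and a median of 16.5 calls in their lowest library, and 27 had at most 40 CpGs. Only 2 of them had every reset library at the limit. The best covered, in an intron of ZNF793 that also carries exon 1 of ZNF571-AS1 and exons 1 and 2 of the lncRNA gene ENSG00000180458, lies at chr19:38039001-38040000. It read 86.8, 95.8 and 97.5% in conventional but 94.6, 58.8 and 74.0% in reset libraries, so that 1 reset library lay within the conventional range and another far below it.

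The other gene lists held at most 3 retained windows each, so their rates rest on few windows. Olfactory receptor genes had 3 of 1723 highly methylated windows, or 17.4 per 10000, with OR10AG1 above as the best covered. With at least 30 calls 0 of 319 were retained, which allows a share of up to 0.940%. Homeobox genes had 1 of 1164, or 8.59 per 10000, in an intron of POU2F1, which read 87.3% ± 4.27 in conventional and 81.5% ± 6.16 in reset cells from 10 to 21 calls per library. Imprinted genes had 1 of 4235 highly methylated windows, a rate of 2.36 per 10000 against 4.41 overall. It lay in SNHG14 at the transcript PWAR1, within the imprinted region of chromosome 15, and read 74.2, 81.1 and 85.2% against 71.4, 61.5 and 60%. Imprinted control regions are known to be methylated on a single parental copy, and their own levels in these libraries were not analysed here. No retained window was found among the 378 highly methylated windows of the clustered protocadherins, the 1269 of germ cell and meiosis genes, the 330 of naive pluripotency factors or the 811 of the DNA methylation machinery. With so few windows a count of 0 allows shares of up to 0.794, 0.236, 0.909 and 0.370%, all above the overall 0.0441%.

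The surroundings of retained windows, whose levels the rule did not use, were compared next. Windows 1 to 5 kb away on either side, themselves not retained, read 87.5, 87.7 and 87.4% in conventional and 42.6, 43.4 and 43.5% in reset libraries. The flanks of the other highly methylated windows read 88.5, 88.6 and 88.4% against 31.0, 31.9 and 32.1%. The difference of retained minus other flanks was therefore -0.961 ± 0.0662 points in conventional cells and 11.5 ± 0.138 points in reset cells (SD, n = 3). This difference of 12.5 points between the groups was present in every library. The exact permutation test gave a two-sided p of 0.1, the smallest possible here. The retained windows were chosen for high levels in these same reset libraries, so nothing is read from this p. The flanks themselves fell by 44.4 points between the groups (two-sided p = 0.1, exact permutation test).

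The rise around retained windows was steepest next to them and wide. Adjoining windows had reset means of 48.7% on the left and 47.7% on the right, against 32.2% beside other highly methylated windows. At 2 kb the values were 43.2 and 43.6%, at 10 kb 40.2 and 40.2% and at 20 kb 38.9 and 39.1%. At 100 kb they were still 36.2 and 36.8%, where the other windows had 31.2%. The flanks of dense retained windows read 46.7% ± 0.647 and those of dense windows not retained 38.7% ± 0.527 in reset cells (SD, n = 3). For windows with at most 40 CpGs the corresponding values were 42.8% ± 0.475 and 31.6% ± 0.618.

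**Figure D5:**
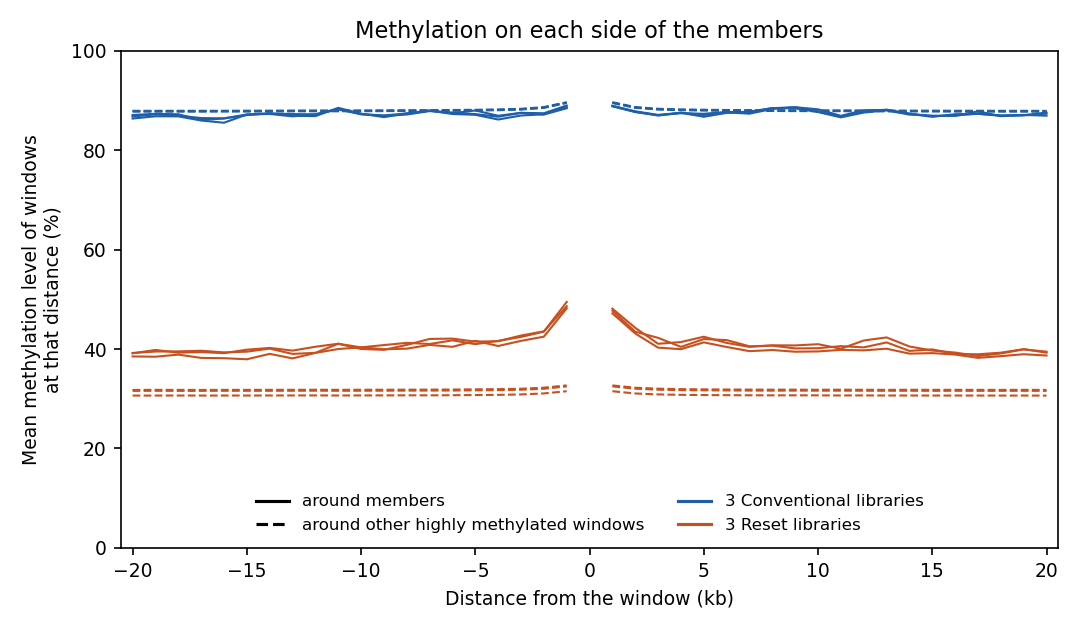
Mean methylation level (%, vertical axis) of windows not retained, by distance in kb on each side (horizontal axis) of retained windows (solid lines) and of the other highly methylated windows (dashed lines), 1 line per library (conventional blue, reset orange). Around retained windows reset levels fall from 48.7 and 47.7% at 1 kb to 38.9 and 39.1% at 20 kb, above the dashed lines throughout.

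Neighbors of retained windows kept more of their methylation than other windows did. Of 5206 highly methylated neighbors within 5 kb that were not retained, 5205 were called lower in reset cells by the quasi-binomial model with Benjamini-Hochberg adjustment over all windows (98.3% of all tested windows were). The same call was made in 1733591 of the 1733665 other highly methylated windows, and leaving out retained windows removes those that fell least, so nothing is read from this count. The neighbors kept a median of 50.2% of their conventional mean, against 35% in all other highly methylated windows. At least 60% was kept by 22% of the neighbors within 5 kb and by 32.1% of the adjoining windows, against 4.41% of all other highly methylated windows.

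With all 6 libraries, the coverage of retained windows did not differ between the groups beyond the spread of the libraries. Calls per CpG in retained windows, relative to all tested windows of the library, were 0.789, 0.806 and 0.798 in conventional and 0.789, 0.824 and 0.803 in reset libraries. The difference was 0.00766 (exact permutation test, two-sided p = 0.6). When windows were chosen again without 1 library, the groups separated each time (exact permutation test, p = 0.1, the smallest possible). Reset was higher by 0.0158 to 0.0234 without a conventional library, and the difference was -0.0161 to -0.0119 without a reset library. The sign followed the group that lost a library, and nothing is read from these p-values. Retained windows were thus covered less than the average window in all 6 libraries and to a like degree in both groups, where the other highly methylated windows had 1.00 in each group.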

How the data were processed

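Whole-genome bisulfite sequencing was done on 3 conventional and 3 reset libraries of H9 cells. The authors sonicated DNA, ligated methylated adapters, treated it with bisulfite, amplified it, and used Trim Galore for trimming and Bismark for alignment to GRCh37. The submitters' processing notes name Bismark 0.9.0 with Bowtie2, whereas the paper names an earlier version of Bismark. Whether duplicate reads were removed is not given in the sources used here. For each CpG cytosine the deposited files give the counts of methylated and of unmethylated calls, not normalized, beside the percent methylated, which the authors computed from these counts.

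Calls on both strands were summed in windows of 1 kb, and positions were shifted to count from 1. Windows needed at least 10 calls in each library. The windows, gene lists and tests were chosen with earlier results of these data known. Group differences of flanks and coverage were tested with exact permutation tests over libraries. For single windows a quasi-binomial logistic model was fitted (Python 3.11.15, numpy 2.4.6, scipy 1.17.1). Its dispersion was squeezed with limma 3.58.1 in R 4.3.3 with a floor of 1, and Benjamini-Hochberg adjusted p-values were called at 0.05. The model was tested on simulated data in which libraries differed only by random sampling of calls and only windows of intermediate level were changed. This does not show how the model does with more spread between libraries or at high levels. Words of 16 bases were counted over the GRCh37 sequence, and genes were those of GENCODE in its version for GRCh37. Gene names for windows follow all gene bodies that a window overlaps, and exon numbers follow canonical transcripts.

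The text names the 8 windows with the highest reset means among those with at least 30 calls in each library, every reset library at the limit and calls per CpG of 0.5 to 2 times the autosomal mean, the 5 runs with the most windows (ties by calls), all windows at coding promoters, the genes with the most windows, the best covered window of each gene list, and 3 windows on each side of the limit. Alternatives were other minimum calls, limits, window sizes and starts, pooled calls, reference CpG positions only, other flanks, Fisher's exact test, a replicate block, and leaving out each library.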

Additional observations from a re-analysis of the deposited data

How the results depend on the processing

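The number of retained windows depended on every limit of the rule. It was 765, and became 1542 with a minimum of 5 calls per library, 271 with 20 and 123 with 30. With a reset mean of at least 0.7 or 0.9 times the conventional mean it was 10585 or 33, with a conventional minimum of 90% it was 390, and with the limit applied to every reset library it was 96. Windows of 2 kb gave 76 and windows of 500 bp 2791. Leaving out 1 library, together with its minimum of calls, gave 842 to 2085. The number was between 842 and 863 without a conventional library. It was 2085 without reset replicate 1, 2062 without reset replicate 2 and 1765 without reset replicate 3. Of the 765 windows, 513 to 603 were shared with these choices. Pooled calls (676), windows that start at position 500 (757), reference CpG positions only (762), a conventional minimum of 70% (1128) and leaving out windows of high coverage (764) stayed within 1.5 times.

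The level in a library left out of the choice moved from 57.3% to 60.5% with 30 calls and to 59.9% with a limit of 0.9. The excess of the flanks was 12.5 points and ranged from 9.06 to 16.8 points over the other settings, and from 10.9 to 12.4 points when 1 library was left out. The fall of the flanks ranged from -47.4 to -39.6 points over the other settings, and from -46.2 to -44.5 points when 1 library was left out. The difference in coverage, 0.00766, ranged from -0.0161 to 0.0234 when 1 library was left out, where the exact p moved from 0.6 to 0.1, the smallest possible. It was below 0 without any 1 of the 3 reset libraries and above 0 without any 1 of the 3 conventional libraries, so its direction is not settled. The number of neighbors called lower was 480 of 480 with 30 calls and 1094 of 1094 for adjoining windows, and ranged from 5725 to 14433 when 1 library was left out, because the windows chosen changed. With the replicate block the flanks fell by the same 44.4 points and the excess was 12.5 points (exact sign-flip test, two-sided p = 0.25, the smallest possible), the coverage difference was 0.00766 (p = 0.25), and 5195 neighbors were called. Same-numbered libraries did not deviate together, with correlations of -7.08e-05, -0.000337 and 0.000542 over highly methylated windows, so the numbers are not read as pairs. Of 272 values of single named windows under other settings, 265 moved by less than 1 SD of the reset libraries. Of 31 named retained windows, 25 met the limit with pooled calls and 23 to 28 when 1 library was left out.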

Other observations

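The X chromosome, which the rule left out, was read by the same limits. Of its 84210 windows with at least 10 calls in each library, 59202 had a conventional mean of at least 80%, and 122 of these kept at least 0.8 times that mean in reset cells. This was 0.206%, against 0.0441% on the autosomes. The difference was not tested.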
